A study of Mus musculus with 205 samples.

Results

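The base editor pairs described here are those numbered 52 or lower in the screen of an editor library that puts a premature stop into each protein-coding gene of mouse mtDNA. They are 26 of the 52 pairs sequenced in that screen, with 2 pairs for each of 13 genes, and they were taken by number alone. Each pair was expressed in NIH/3T3 cells, an established mouse embryonic fibroblast line, from 2 plasmids carrying a fluorescent marker each. Cells positive for both markers were sorted and then collected 7 d after transfection. The reference was 2 samples of the same line transfected with empty vector, both also collected at 7 d. Each pair was 1 sample, so a single pair's value has no replicate error, and differences between sets of pairs were tested with the gene as the unit.

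A DdCBE is a cytosine base editor that works without a guide RNA. The bacterial toxin DddA deaminates cytosine in double-stranded DNA, and it is cut into a pair of inactive parts that regain activity when TALE proteins bring them together on neighbouring stretches of DNA. A fused uracil glycosylase inhibitor preserves the uracil, so a C:G pair becomes T:A. The mitochondrial genome is reached through a mitochondrial targeting sequence, which matters because guide RNAs are not readily imported into mitochondria. In vertebrate mitochondria TGA is read as tryptophan and TAA as stop, so editing the cytosine opposite the G of TGA ends the protein.

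For every gene there were alternative TALEs on either strand, L1 and L2 on the light strand and H1 and H2 on the heavy strand. In the pairs numbered 52 or lower, even numbers joined L2 with H2 and odd numbers joined L1 with H1. Pairs numbered 53 or higher joined the same TALEs crosswise, as L2 with H1 or L1 with H2. The DddA toxin domain was split at the same residue in all pairs. In 11 genes the C-terminal part was on the light-strand TALE and the N-terminal part on the heavy-strand TALE, and in Nd4l and Nd6 the arrangement was the other way round. The study took this orientation from an earlier Sanger comparison of on-target editing, so the members had already been picked for editing well in 1 of the orientations. Within a gene the odd and even pair shared the orientation and the target base, and differed in both TALEs.

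The target windows of 8 genes are shown, because the results turn on the genes with the widest gaps between their even and odd pair, on the best edited gene and on the genes with the other split orientation. Each is 20 bases on either side of the target on the plus strand of chrM in GRCm38, from RefSeq, with the edited base in capitals.
CoIII, chrM:9023-9063, codon 146 of 261: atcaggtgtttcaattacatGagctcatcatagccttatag
CoII, chrM:7303-7343, codon 104 of 228: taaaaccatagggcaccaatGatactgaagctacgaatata
Nd4, chrM:10193-10233, codon 16 of 459: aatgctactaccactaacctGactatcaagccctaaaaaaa
Nd3, chrM:9506-9546, codon 23 of 116: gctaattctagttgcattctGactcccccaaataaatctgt
Nd5, chrM:11924-11964, codon 68 of 608: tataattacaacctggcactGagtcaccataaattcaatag
CoI, chrM:5324-5364, codon 6 of 515: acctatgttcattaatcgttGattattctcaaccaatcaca
Nd6, chrM:13794-13834, codon 86 of 173 on the minus strand: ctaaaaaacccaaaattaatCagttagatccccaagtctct
Nd4l, chrM:10126-10167, codon 91 of 99: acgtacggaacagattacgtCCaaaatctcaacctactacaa
All 13 targets lay in coding sequence, and none in the stretches where Atp8 overlaps Atp6 or Nd4l overlaps Nd4. In 12 of them the edited base was the middle of a TGA codon, and in Nd4l the CAA codon for glutamine and the last base of the codon before it were both edited. In all 13 the edited cytosine, the first of the 2 in Nd4l, had a T on its 5′ side on its own strand, and the second Nd4l cytosine had a C there.

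On-target editing is the percentage of reads with the edit at the target, and off-target editing is the average C:G-to-T:A percentage over mtDNA away from it. On-target editing by the 26 pairs spanned 17.6% to 92.7% with a median of 74.1%, and 21 of the 26 were over 50%. Off-target editing was far lower, between 0.142% and 0.404% with a median of 0.280%. The pairs came from 3 sequencing runs, with 16 in MS1, 6 in MS2 and 4 in MS3. The median of the mean coverage was 1409 in MS1, 728 in MS2 and 10494 in MS3. Read depth at the target base itself is unknown, so no counting interval is given. Pair 9 for Nd4l was the shallowest sample at a mean coverage of 92.6.

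The empty vectors differed between runs, at 0.121% off target in MS2 and 0.0616% in MS1, which is 1.97-fold. MS3 held none. All 16 members in MS1 were above that run's empty vector, by 2.31-fold to 6.47-fold with a median of 4.35-fold. All 6 members in MS2 were above theirs, by 1.63-fold to 2.60-fold with a median of 2.03-fold. Each run's level rests on 1 empty-vector sample, so these ratios have no test. Since the backgrounds differ, off-target values are compared below within a run where the pairs allow it.

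Complex I of the respiratory chain, which oxidizes NADH, has 7 mtDNA-encoded subunits. The 14 pairs against them ran from 24.1% to 84.6% on target with a median of 63.5%. For Nd1, part of the membrane arm next to the quinone site, pair 28 reached 74.4% and pair 27 reached 78.8%, with off-target values of 0.332% and 0.369%. For Nd2, an antiporter-like subunit, pair 30 reached 65.5% and pair 29 reached 61.5%, with 0.171% and 0.148% off target. The pairs of each of these genes thus lay within 5 percentage points of each other on target, and all 4 samples were in run MS1. As deposited, the 5 lowest off-target values of the 26 pairs were those of the Nd2 and Nd3 pairs and of Cytb pair 42. All 5 were in MS1, the run with the lower empty vector, so this ranking crosses backgrounds. With the run's empty vector subtracted, Nd4l pair 9 in MS2 was the lowest, at 0.0759 percentage points, and MS3 pairs have no such value.

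Nd3, a small subunit with a loop near the quinone site, was the only gene with a wide gap inside a single run. Pair 32 reached 68.4% and pair 31 reached 39.1%, a difference of 29.27 percentage points. Off target they differed little, at 0.181% and 0.142%, and pair 31 was the lowest of all 26 as deposited. With each run's empty vector subtracted, pair 31 had 0.0809 percentage points, above the 0.0759 of Nd4l pair 9.

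Nd4 and Nd5 are further antiporter-like subunits of the membrane arm, and their pairs were far apart in opposite directions. For Nd4, pair 34 reached 24.1% and pair 33 reached 58.4%, a difference of -34.26 percentage points. For Nd5, pair 38 reached 78.2% and pair 37 reached 53.7%, a difference of 24.48 percentage points. In both genes the pair with more on-target editing was in MS1 and the other in MS2. Off target, Nd4 pairs 34 and 33 gave 0.224% and 0.398%, and Nd5 pairs 38 and 37 gave 0.248% and 0.301%.

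Nd4l and Nd6, small membrane-arm subunits, were the genes with the other split orientation, and in both the even pair was the lower on target. Pair 10 for Nd4l reached 73.8% and pair 9 reached 84.6%. At the second Nd4l cytosine, which follows a C, pair 10 reached 70.3%, below its value at the first cytosine, while pair 9 gave 84.6% at both. Pair 10 had a mean coverage of 9456 in MS3, against 92.6 for pair 9 in MS2. For Nd6, the only protein gene on the other coding strand, pair 14 reached 41.3% and pair 13 reached 54.3%, both in MS3. As deposited, their off-target values of 0.404% and 0.374% were the highest and the fourth highest of the 26. Both pairs were among the 7 lowest on target. MS3 held no empty vector, so the run and the pairs cannot be told apart in this off-target ranking.

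Cytb, the mtDNA-encoded subunit of complex III, was edited at 78.7% by pair 42 in MS1 and 74.9% by pair 41 in MS2, the narrowest gap of the 13 genes. Dividing on-target by off-target editing, with no empty vector subtracted, gave the highest ratio among the 26 for pair 42, at 439, against a median of 269. This ranking crosses runs with different backgrounds. The off-target value of pair 42 was 0.179%, which was 2.91-fold the empty vector of its run, and pair 41 had 0.223%, which was 1.84-fold its own. With the run's empty vector subtracted, pair 42 had 0.118 percentage points and pair 41 had 0.102, so their off-target order turned.

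Complex IV, cytochrome c oxidase, held both extremes. CoI, the catalytic subunit, was edited at 92.7% by pair 44 and 83.4% by pair 43, both in MS1, and pair 44 was the highest of the 26. CoIII, a core subunit without redox centres, was edited at 17.6% by pair 48 in MS2 and 82.8% by pair 47 in MS1. That difference of -65.12 percentage points was the widest of the 13 genes, and pair 48 was the lowest of the 26. CoII, which takes electrons from cytochrome c, went the other way, at 70.9% with pair 46 in MS1 and 32.1% with pair 45 in MS2, a difference of 38.77 percentage points.

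The low pairs of complex IV were not among the lowest off target as deposited. Pair 48 for CoIII had 0.268% off target and pair 47 had 0.347%, although the on-target values differed much more. With each run's empty vector subtracted, the gap was wider, at 0.147 percentage points for pair 48 and 0.286 for pair 47. CoII pair 46 had 0.205% off target and pair 45 had 0.316%, which puts the CoII pairs in opposite order on and off target. Pair 48 accordingly had the lowest on-target to off-target ratio of the 26, at 65.8, and CoII pair 45 and Nd6 pair 14 had the next lowest, both 102. These ratios too have no empty vector subtracted.

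Complex V, the ATP synthase, was edited well by all 4 of its pairs, at 78.9% to 87.9%. For Atp6, part of its proton channel, pair 50 reached 84.1% and pair 49 reached 87.9%, both in MS1, with 0.290% and 0.383% off target. For Atp8, a short membrane subunit, pair 52 reached 78.9% in MS1 and pair 51 reached 83.2% in MS3, with 0.299% and 0.271% off target. The pairs of each gene were within 5 percentage points on target.

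Across genes, neither pairing was the better one on target. Even pairs averaged 65.3% and odd pairs 67.3%, and the even pair was higher in 6 genes and lower in 7. The mean difference, even minus odd, was -2.01 ± 27.0 percentage points (SD, n = 13 genes), with an exact two-sided sign-flip permutation p = 0.799. The 95% interval from inverting that test ran from -18.47 to 13.6 percentage points, and it takes in sizeable differences in either direction. Over the 6 genes with both pairs in 1 run the mean difference was 3.55 percentage points with the opposite sign (exact p = 0.656, where the smallest possible is 0.0313).

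The gap within a gene was either small or very wide. In 8 genes it was between 3.75 and 13.0 percentage points in size, and in 5 genes (Nd3, Nd4, Nd5, CoII and CoIII) between 24.5 and 65.1. The standard deviation of the 13 gene means was 16.0 percentage points, which the gap exceeded in each of those 5 genes. Of the 5 genes, only Nd3 had both pairs in the same run. In all 5 genes whose pairs were divided between MS1 and MS2, the MS1 pair was the higher on target, and there the run and the pairing cannot be told apart from these pairs alone. Off target the MS1 pair was the higher in 2 of those 5 on the values as deposited. With each run's empty vector subtracted, it was the higher in Nd4, CoIII, Nd5 and Cytb and the lower in CoII. The margin was small in Nd5 (0.186 against 0.180 percentage points) and Cytb (0.118 against 0.102).

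Off target the pairings did not differ beyond the spread between genes either. Even pairs averaged 0.262% and odd pairs 0.284%. The mean difference was -0.022 ± 0.0814 percentage points (SD, n = 13 genes; exact sign-flip permutation p = 0.342), with a 95% interval from -0.0722 to 0.0272. After Benjamini-Hochberg adjustment over the 4 paired tests made here, p was 0.799 for the on-target and 0.456 for the off-target comparison. Over the 6 genes with both pairs in 1 run the mean difference was 0.0039 percentage points, again of the opposite sign (exact p = 0.906, where the smallest possible is 0.0313).

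Within a run, more on-target editing did not go with more or less off-target editing past the threshold of 0.05. Over the 16 members of MS1, which fall in 11 genes, Pearson's r was 0.46 (permutation p = 0.066) and Spearman's rho was 0.46 (permutation p = 0.0728). The permutations shuffled pairs freely and took no account of genes that hold 2 of the 16. The adjusted p was 0.132 for r over the 2 runs examined. Without pairs 31 and 33, whose on-target values lay farthest from the middle of the run, r was 0.67 (permutation p = 0.00879). Nd4 pair 33 combined 58.4% on target with the highest off-target value of the run, 0.398%, and pair 42 for Cytb combined 78.7% with one of the lowest.

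The 6 members of MS2 had r = -0.50 and rho = -0.54 (exact permutation p = 0.275 and 0.297, adjusted p = 0.275 and 0.297). Without pairs 9 and 41 the sign of r turned, to 0.56 over the 4 pairs left, so no relation can be read from that run. The 4 members of MS3 were too few for a correlation, and there the Nd6 pairs 14 and 13 were lower on target and higher off target than Nd4l pair 10 and Atp8 pair 51.

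Within genes, the pair with more on-target editing was also the one with more off-target editing in 7 of 13 genes, and in 5 of the 6 genes whose pairs shared a run. Nd6 was the exception among those 6, with pair 14 lower on target and slightly higher off target than pair 13. Across the 13 genes the even minus odd differences on and off target had r = 0.20 and rho = 0.08, a description in which each point stands for a different target site. For CoII, Nd5 and Cytb the MS1 pair had more on-target and less off-target editing than the MS2 pair, and the MS2 empty vector was itself the higher of the 2. With each run's empty vector subtracted, the MS1 pair was still the lower off target in CoII, but the higher in Nd5 and Cytb.

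In the crossed pairings each TALE of a gene was measured again with the other partner. These values are set beside the gaps as a description, since each combination is 1 sample and runs differ. In Nd3 the pairs were ordered by their heavy-strand TALE. The pairs with H2 reached 68.4% (pair 32) and 79.6% (pair 58), and the pairs with H1 reached 39.1% (pair 31) and 37.5% (pair 57). Exchanging H1 for H2 thus went with 30.8 percentage points more editing beside L2 and 40.5 more beside L1. Pairs 58 and 57 were both in MS2, so the order of pairs 32 and 31 in MS1 was seen in another run with other samples.

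In Nd4 and Nd5 the pairs were ordered by their light-strand TALE, in opposite directions. For Nd4 the pairs with L2 reached 24.1% (pair 34) and 35.4% (pair 59), and the pairs with L1 reached 58.4% (pair 33) and 58.3% (pair 60). Both Nd4 pairs with L2 were in MS2, those with L1 in MS1 and MS3, so the run and the TALE cannot be told apart for this gene, and pair 59 had a mean coverage of 108. For Nd5 the pairs with L2 reached 78.2% (pair 38) and 79.2% (pair 63), and the pairs with L1 reached 53.7% (pair 37) and 58.2% (pair 64). Pairs 63 and 64 were both in MS3, where L2 was again the higher.

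In CoIII both pairs with H2 were below both pairs with H1. The pairs with H2 reached 17.6% (pair 48) and 45.3% (pair 74), and the pairs with H1 reached 82.8% (pair 47) and 80.8% (pair 73). Pairs 48, 74 and 73 were all in MS2, so the difference of -63.17 percentage points between pairs 48 and 73 lies within that run. Beside H2, L2 was also lower than L1 (-27.65 percentage points), whereas beside H1 it differed by only -1.95.

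In CoII 1 pair stood below the other 3. Pair 46 reached 70.9%, pair 71 (L2 with H1) 58.9% and pair 72 (L1 with H2) 65.2%, and only pair 45, with L1 and H1, was low at 32.1%. Pairs 45, 71 and 72 were all in MS2, and replacing either TALE of pair 45 there went with 26.8 (L2) or 33.1 (H2) percentage points more editing.

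Over all 13 genes, exchanging L1 for L2 moved on-target editing in the same direction beside both heavy-strand partners in 12 genes, and the 2 sets of differences had r = 0.70 and rho = 0.49. Exchanging H1 for H2 did so beside both light-strand partners in 9 genes, with r = 0.87 and rho = 0.86. The 2 sets of differences share no sample in either case. Each point is a different gene, and for many genes the samples came from different runs. For the light-strand TALE r was 0.44 without CoII and Nd5, the genes farthest from the median. For the heavy-strand TALE r was 0.70 without CoIII and Nd3, chosen in the same way.

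Off target most exchanges did not keep their direction. The light-strand exchange had the same direction with both partners in 1 gene of 13 and the heavy-strand exchange in 6 of 13, with r = -0.28 and 0.14. In each exchange 1 difference is crossed minus member and the other is member minus crossed. Lower off-target values in members, given below, therefore push these differences to opposite signs. These counts cannot tell whether a TALE had the same effect off target with both partners. Both pairs numbered 52 or lower were below both crossed pairs off target in 6 genes, Nd1, Nd2, Nd3, Nd5, Cytb and CoIII. These values have no empty vector subtracted. Each of these genes had a member in MS1, the run with the lower empty vector, and no crossed pair there. The run and the pairing thus cannot be told apart in this count.

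The off-target comparison of pairs numbered 52 or lower with crossed pairs was the only 1 of the 4 paired tests to pass the threshold of 0.05. Pairs numbered 52 or lower averaged 0.273% off target and those numbered 53 or higher averaged 0.382%. The mean of the gene differences was -0.108 ± 0.131 percentage points (SD, n = 13 genes), with a 95% interval from -0.187 to -0.0303. The difference was negative in 12 of 13 genes, with Nd6 the exception (exact sign-flip permutation p = 0.01, adjusted p = 0.04). As deposited, the pair with the least off-target editing of a gene's 4 was numbered 52 or lower in 11 of 13 genes. Members were 2 of those 4 pairs in every gene. No empty vector was subtracted, and MS1, the run with the lower one, held no crossed pair. The run and the pairing thus cannot be told apart in this count.

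Runs differed between these sets as well: all 16 pairs of MS1, the run with the lower empty vector, were numbered 52 or lower. Within MS2 the 6 members averaged 0.255% and the 18 other pairs 0.357%, and within MS3 the 4 members averaged 0.342% and the 8 others 0.437%, but these sets hold different genes, so no test is drawn from them. The 8 in MS3 included the single highest value of the screen, 0.995% for Nd5 pair 63. With each run's empty vector subtracted, the mean difference over the 9 genes that could be used was -0.0742 percentage points (exact sign-flip permutation p = 0.0195). Nd2, Nd4l, Nd5 and Nd6 were left out, since their members or their crossed pairs were all in MS3. Nd6 was the gene with the positive difference above, and among the genes kept Atp8 turned positive. In Nd1, Nd4 and Atp8 a single pair stood for the members or the crossed pairs. Each run's background was a single sample. Pairs of the same gene and the same run could be set against each other in 5 genes, a comparison added after seeing the data. Members were lower there in Nd4, CoII, CoIII and Cytb and higher in Nd4l, with a mean difference of -0.102 percentage points (exact sign-flip permutation p = 0.188, n = 5 genes, where the smallest possible is 0.0625). Within gene and run the difference thus did not pass the threshold, which 5 genes cannot reach.

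On target the members and the crossed pairs were closer. They averaged 66.3% and 68.4%, and the mean of the gene differences was -2.13 ± 5.56 percentage points (SD, n = 13 genes; exact sign-flip permutation p = 0.195, adjusted p = 0.39; 95% interval -5.54 to 1.19). Members were higher in 5 genes and lower in 8. In the 5 genes with pairs of both kinds in 1 run, members were lower in all 5, with a mean difference of -18.36 percentage points (exact sign-flip permutation p = 0.0625, the smallest possible). The gene differences there ran from -45.41 for CoIII to -0.54 for Nd4l, and the members were CoIII pair 48, CoII pair 45, Nd4 pair 34, Cytb pair 41 and Nd4l pair 10. A gene's highest on-target value among its 4 pairs belonged to a member in 6 of 13 genes.

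The study carried 8 of the 26 pairs into a later experiment sampled 14 d after transfection, and chose them from the 7 d measurements above. The 3 values of a pair at 14 d are technical replicates by the study's own description, so each pair has 1 replicate there too and every SD below measures technical spread. The pairs carried forward were 28 (Nd1), 29 (Nd2), 32 (Nd3), 42 (Cytb), 46 (CoII), 47 (CoIII), 50 (Atp6) and 51 (Atp8). In 5 of the 8 genes the pair carried forward had the higher on-target value of the even and odd pair, and in 6 of the 8 the lower off-target value. The 14 d samples were sequenced in another run, at a mean coverage of 37126 to 96891.

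On-target editing at 14 d was below the 7 d value for all 8 pairs, by 4.5 to 17.9 percentage points. Atp8 pair 51 showed the widest difference, with 65.7%, 65.1% and 65.1% at 14 d, against 83.2% at 7 d. CoII pair 46 showed the narrowest, with 66.3%, 66.5% and 66.4% at 14 d, against 70.9% at 7 d. The SDs of the 3 values of a pair were between 0.104 and 0.406 percentage points, which is technical spread only. Since the times have 1 replicate each and were sequenced in different runs, no test was made.

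CoIII pair 47 remained high at 14 d, with 74.1%, 73.9% and 73.9%, against 82.8% at 7 d, and Atp6 pair 50 had 69.8%, 69.8% and 69.5%, against 84.1% at 7 d. Cytb pair 42 averaged 64.5% ± 0.205 (SD over 3 technical replicates), Nd3 pair 32 averaged 63.3% ± 0.202, Nd1 pair 28 averaged 60.4% ± 0.104 and Nd2 pair 29 averaged 56.3% ± 0.406. The order of the 8 pairs was partly shared between the times, with r = 0.77 and rho = 0.71 on target.

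Off-target percentages as deposited were also lower at 14 d than at 7 d for all 8 pairs, as was the empty vector. The empty vector at 14 d had 0.0238% ± 0.000279 (SD over 3 technical replicates). Relative to that background the 8 pairs ranged from 2.99-fold for Nd2 pair 29 to 12.1-fold for CoIII pair 47. At 7 d pairs 29 and 47 were 2.41-fold and 5.64-fold the empty vector of their run, MS1. This ratio was higher at 14 d than at 7 d for every carried pair that was in MS1. Its divisor, the empty vector, was 0.0616% in MS1 and 0.0238% at 14 d. A higher ratio therefore does not show more off-target editing above background. The Atp8 pair was in MS3, which held no empty vector. Whether off-target editing above background changed between the times was not tested. CoIII pair 47 gave 0.284%, 0.294% and 0.288%, against 0.347% at 7 d, and Nd2 pair 29 gave 0.0733%, 0.0698% and 0.0709%, against 0.148% at 7 d. The order of off-target values was close to that at 7 d, with r = 0.79 and rho = 0.86 over the 8 pairs.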

How the data were processed

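Per the labels and the study's methods, mtDNA of each sample was amplified as 2 long-range products, tagmented and sequenced as paired reads. The authors trimmed reads (Trim Galore, cutadapt), aligned them to GRCm38 chrM with Bowtie 2, and counted alleles with SAMtools and VarScan. The authors deposited on-target and average off-target editing as percent values, with mean coverage as a signal per sample. The positions averaged for the off-target percent are not given in the sources used here. PCR reads carry no molecular identifiers, and no counts are used. An unexplained deposited score was not used.

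Percentages were compared as deposited, with no filter. Odd and even pairs, and pairs up to 52 against the rest, were compared within genes by exact sign-flip permutation tests of the mean gene difference. A comparison within gene and run was added after seeing the data. Correlations over samples used 100000 permutations, or all of them for 6 pairs, and those across genes are descriptions. Benjamini-Hochberg adjustment covered 4 paired tests and, separately, 2 within-run relations. All members are named. TALE joining and split came from the study's text and drawings, since GEO's labels give only the pair number. TALE recognition sequences are not used here. Targets were located in the RefSeq annotation of GRCm38. Tests were checked on simulated data. Members and comparisons were chosen with earlier results of these data known. Python 3.11.15 and NumPy 2.4.6 were used. Alternatives covered the run, scale, summary, background, coverage, split orientation and leaving out each gene.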

Additional observations from a re-analysis of the deposited data

How the results depend on the processing

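Of the 43 alternatives other than leaving out 1 gene, 32 kept both the direction and the side of the 0.05 threshold. That count includes the comparisons within MS2 and MS3, which shuffled pairs of different genes. It also includes the correlations across genes, which are read here only as descriptions. No paired analysis was possible because each screening pair is 1 sample and no replicate number links samples; the paired tests above match pairs by gene instead. With only genes whose pairs shared a run, the even minus odd differences turned, to 3.55 percentage points on target and 0.0039 off target. For the off-target difference between pairs up to 52 and from 53, the median over genes was -0.104 and the value within gene and run -0.102. Neither passed the threshold. The MS2 value was -0.102 and the MS3 value -0.0948, but these compare different genes, so no test is drawn from them. On target the values were -20.1 in MS2, -6.31 in MS3 and -18.36 within gene and run. In MS1 the correlation of on-target with off-target editing passed the threshold with off-target values on a log scale (r = 0.55) and without pairs 31 and 33 (r = 0.67). In MS2 this correlation turned, to 0.56, without pairs 9 and 41. The light-strand correlation of on-target exchanges, r = 0.70 over all genes, was weaker as rho (0.49) and without CoII and Nd5 (0.44). Causes were not tested.

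Leaving out 1 gene at a time, the on-target even minus odd mean ran from -5.41 without CoII to 3.25 without CoIII, and it was 0.68 without Nd4. The off-target mean ran from -0.0342 without Nd4l to -0.00957 without Nd4. The differences between pairs up to 52 and from 53 ran from -2.79 without Nd6 to -1.24 without CoIII on target, and from -0.131 without Nd6 to -0.0849 without Nd5 off target, where the largest exact p was 0.02. The correlation of even minus odd differences ran from -0.0035 without Nd4 to 0.41 without CoII. Those of the on-target exchanges ran from 0.54 without Nd5 to 0.78 without CoIII for the light-strand TALE and from 0.82 to 0.89 for the heavy-strand TALE. Off target they ran from -0.61 without Nd5 to -0.026 without Nd6 for the light-strand TALE and from 0.052 to 0.42 for the heavy-strand TALE. Depth at single bases is unknown, which limits Nd4l pair 9 most.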
